A study of Mus musculus with 2 samples.

Results

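The genes described are the receptors and kinases of the common gamma-chain cytokine family: Il2rg, which encodes the shared gamma chain, the receptor chains Il7r, Il2ra, Il2rb, Il15ra, Il4ra and Il21r, and the kinases Jak1 and Jak3. They were chosen by name, by a rule that uses no measured value, though with earlier results of these data known. They are 9 of the 21827 protein-coding symbols in the basic set of GENCODE M21. Each gene's locus, its body plus 50 kb on both sides, was searched, and every peak and footprint in it was taken. The assay was DNase-seq: the nuclease DNase I cuts open DNA in nuclei, and sequencing of the ends shows where it cut. There were 2 libraries, both of alpha-beta T cells that are CD8-positive, naive and resting and have not yet met antigen, taken as primary cells from male, virgin, adult B6CASTF1/J mice aged 2 months. B6CASTF1/J is a first-generation cross of a C57BL/6 and a CAST mouse, so each cell carries a chromosome set of each parent strain. The libraries, biological replicates 2 and 3, form 1 group with no other condition. They share a donor label and differ in biosample label, and the sources used here do not say whether the cells came from separate animals.

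The gamma chain pairs with the other chains to form the receptors for several interleukins. JAK3 binds the gamma chain and JAK1 binds its partners, and the activated kinases phosphorylate STAT proteins, which then move to the nucleus. Naive CD8 T cells depend on interleukin 7, read through Il7r, for survival, and on interleukin 15, read through Il2rb. Il2ra, which raises the affinity for interleukin 2, is known mainly from activated and regulatory T cells.

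Each library had a shorter and a longer peak list, called stricter and permissive here, which held 38223 and 53597 peaks in replicate 2 and 17061 and 24844 peaks in replicate 3. The deposited signal of a peak is in units that the labels do not state. Every signal value under 2 was a whole multiple of 1 step, within 0.05 of the step, and the step of replicate 3 was 6.06 times that of replicate 2. If the signal is scaled to sequencing depth, replicate 2 is the deeper library by that factor. A peak missing from replicate 3 does not show a closed site. Overlapping stricter peaks of the libraries were joined into regions. A region was found in both libraries where peaks of each shared at least 1 bp. Intervals beside shares are 95% Wilson intervals and cover counting error alone.

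As a check of the labelled cell type, promoter peaks were counted at marker genes, beside 40.9% of all genes with a stricter promoter peak in both libraries and 50.5% in replicate 2. Of 12 general T cell markers, 4 (among them Bcl11b, Lat and Zap70) had a stricter promoter peak in both libraries, 7 in replicate 2 alone and Tcf7 in neither. Of 3 CD8 markers, Cd8b1 and Runx3 had one in both libraries, while Cd8a had a permissive peak of 1.18 in replicate 2 alone. None of 8 B cell, 8 myeloid, 4 natural killer and 5 erythroid markers had one in both, and 3 of them had a weak peak in replicate 2, among them the myeloid Itgam at 0.657 and the erythroid Epor at 0.955.

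The following stretches carry the results below: the Il7r sites called in replicate 2 alone, the Il2ra and Il4ra to Il21r elements called in both libraries away from promoters, the strongest peak of the Il2rb locus, and promoters or an intronic site of the shared chain and of Jak1. They are read from the GRCm38 reference (RefSeq), which is the mm10 build, and so show the C57BL/6 sequence and not that of CAST. Each is written 5′ to 3′ along its gene, and capitals mark bases inside footprints of replicate 2, short stretches protected from cutting within open chromatin. The Il7r promoter is chr15:9529836-9530000 on the minus strand. The Il7r upstream element is chr15:9533421-9533720 on the minus strand, the 300 bp of its peak with most bases inside footprints of replicate 2. The Il2ra intronic elements are chr2:11653421-11653660 and chr2:11664061-11664260 on the plus strand.
Il7r promoter: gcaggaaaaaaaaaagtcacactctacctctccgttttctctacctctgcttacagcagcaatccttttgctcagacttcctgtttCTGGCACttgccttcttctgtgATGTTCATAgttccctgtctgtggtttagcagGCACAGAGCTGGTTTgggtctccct
Il7r upstream element: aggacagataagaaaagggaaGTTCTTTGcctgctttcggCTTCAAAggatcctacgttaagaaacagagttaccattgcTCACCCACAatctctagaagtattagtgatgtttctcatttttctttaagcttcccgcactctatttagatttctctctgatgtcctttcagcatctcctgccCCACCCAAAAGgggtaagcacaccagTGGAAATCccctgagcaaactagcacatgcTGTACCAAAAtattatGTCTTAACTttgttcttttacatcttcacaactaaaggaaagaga
Il2ra intronic element 1: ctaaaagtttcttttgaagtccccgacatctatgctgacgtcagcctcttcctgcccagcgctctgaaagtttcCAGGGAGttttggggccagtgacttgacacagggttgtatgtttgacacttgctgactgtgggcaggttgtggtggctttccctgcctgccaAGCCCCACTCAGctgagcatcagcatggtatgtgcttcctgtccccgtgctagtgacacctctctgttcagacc
Il2ra intronic element 2: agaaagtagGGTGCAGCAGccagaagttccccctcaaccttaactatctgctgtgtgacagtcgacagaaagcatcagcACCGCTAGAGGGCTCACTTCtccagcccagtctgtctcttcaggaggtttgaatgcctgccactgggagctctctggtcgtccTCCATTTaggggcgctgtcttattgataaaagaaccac

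The Il2rb upstream element is chr15:78532221-78532440 on the minus strand. The Il4ra to Il21r element is chr7:125581186-125581485 on the plus strand, again the 300 bp with most bases inside footprints of replicate 2. The Il2rg promoter is chrX:101268256-101268380, the Jak1 promoter chr4:101265283-101265400 and the Jak1 intronic element chr4:101187421-101187700, all on the minus strand.
Il2rb upstream element: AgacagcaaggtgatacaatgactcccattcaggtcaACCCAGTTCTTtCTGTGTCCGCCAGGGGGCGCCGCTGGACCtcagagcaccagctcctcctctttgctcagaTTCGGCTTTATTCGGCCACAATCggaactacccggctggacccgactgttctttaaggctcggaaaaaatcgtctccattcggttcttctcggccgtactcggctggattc
Il4ra to Il21r element: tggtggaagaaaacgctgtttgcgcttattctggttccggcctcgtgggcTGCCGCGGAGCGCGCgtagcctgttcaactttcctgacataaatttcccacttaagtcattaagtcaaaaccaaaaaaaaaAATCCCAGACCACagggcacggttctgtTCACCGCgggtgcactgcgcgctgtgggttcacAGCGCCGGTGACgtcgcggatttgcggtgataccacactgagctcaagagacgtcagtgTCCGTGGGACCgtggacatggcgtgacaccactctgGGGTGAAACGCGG
Il2rg promoter: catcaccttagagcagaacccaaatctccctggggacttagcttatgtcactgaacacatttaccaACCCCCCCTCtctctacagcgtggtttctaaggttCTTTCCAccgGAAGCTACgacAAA
Jak1 promoter: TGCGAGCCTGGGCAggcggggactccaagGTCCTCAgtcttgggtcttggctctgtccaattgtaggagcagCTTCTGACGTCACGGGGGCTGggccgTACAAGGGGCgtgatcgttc
Jak1 intronic element: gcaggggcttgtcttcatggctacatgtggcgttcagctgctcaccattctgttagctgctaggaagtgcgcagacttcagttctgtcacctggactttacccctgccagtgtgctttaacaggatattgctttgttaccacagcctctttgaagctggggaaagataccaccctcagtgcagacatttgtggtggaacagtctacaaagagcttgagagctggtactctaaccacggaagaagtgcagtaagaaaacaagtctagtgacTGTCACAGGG

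Most promoters of the family were called in replicate 2, and most had a low signal. With a promoter taken as 1000 bp either side of a protein-coding start site, 8 of the 9 genes had a stricter peak in replicate 2, where 50.5% of all genes did. In replicate 3 it was 3 of 9, where 40.9% of all genes did. The 3 genes with a peak in both libraries were Il15ra, Il4ra and Jak1, against 40.9% of all genes. Il2rg, Il7r, Il2rb, Il21r and Jak3 had one in replicate 2 alone and Il2ra in neither. With the permissive lists 6 of 9 had a peak in both, Il2rg, Il2rb and Jak3 being added, against 45.5% of all genes. The median of the strongest promoter peak was 1.69 over the 8 genes with one in replicate 2, against 3.75 over the 11019 genes of the annotation with one. In replicate 3 it was 4.43 over 3 genes, against 4.65 over 8924 genes.

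**Figure D1:**
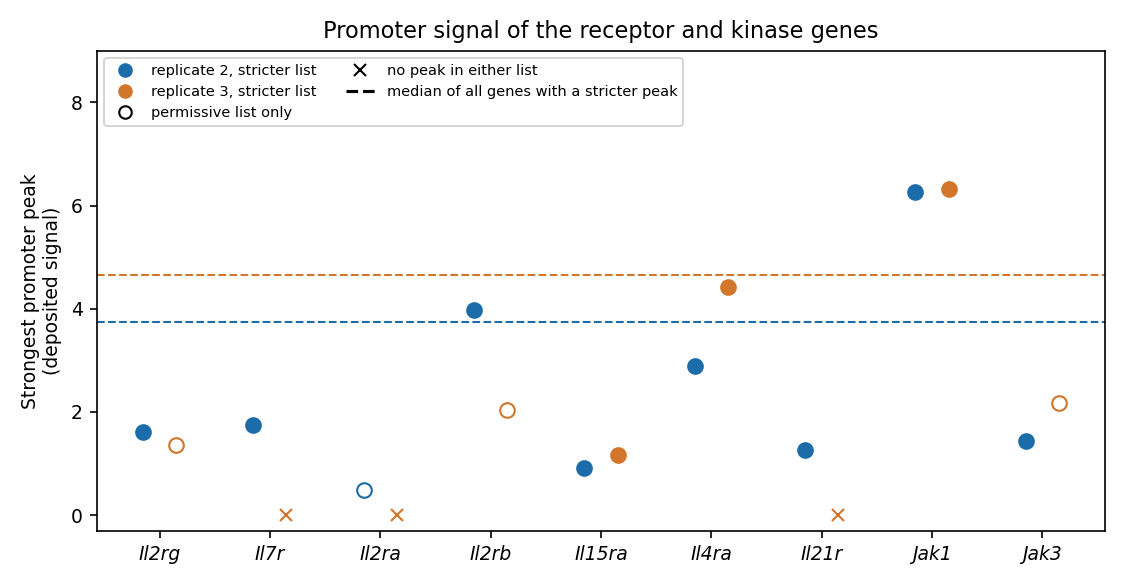
Deposited signal of the strongest promoter peak (vertical axis, no stated unit) of each gene in replicate 2 (blue) and replicate 3 (orange), with filled circles for stricter peaks, open circles for peaks of the permissive list alone and crosses where neither list had one. Dashed lines are the medians of all genes with a stricter promoter peak in that library; Jak1 stood above both lines and Il2rb above that of replicate 2, and the other 7 genes lay below.

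Il2rg, the shared chain, lies at chrX:101264378-101268255 on the minus strand. Its promoter peak at chrX:101268141-101268380 had a signal of 1.62 in replicate 2, higher than in 20.8% of genes with a stricter promoter peak in that library. In replicate 3 it was in the permissive list alone, at 1.36, with a deposited false discovery rate of 0.0356 at its best position. The same stretch is the promoter of the overlapping readthrough gene Gm20489, so the peak cannot be assigned to Il2rg alone. On the X chromosome, 221 of 948 protein-coding genes (23.3%) had a stricter promoter peak in both libraries. Males have 1 copy of the X, and its part in the low signal was not tested. The 4 regions of the Il2rg locus found in both libraries belonged to other genes: the promoters of Snx12 (2.63 in replicate 2 and 2.98 in replicate 3), Foxo4 (2.76 and 2.35) and Med12 (2.42 and 2.48), and a coding exon of Med12 (1.40 and 1.63). Foxo4 encodes a forkhead transcription factor and Med12 a Mediator subunit. The promoter peak of Il2rg held 7 footprints in replicate 2 and none in replicate 3.

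Il7r, the interleukin 7 receptor chain, lies at chr15:9505788-9530176 on the minus strand, and its locus was called open in replicate 2 and almost empty in replicate 3. Replicate 2 had 8 stricter peaks there, and replicate 3 had 0. Of those 8 peaks, 0 met a stricter peak of the other library (0 to 32.4%) and 1 met a permissive one. The promoter peak at chr15:9529761-9530000 had a signal of 1.75 in replicate 2, with a best false discovery rate of 2.55e-07. No position of it was listed in replicate 3 at a false discovery rate of 0.05 or lower.

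The strongest peak near the Il7r gene lay 3.78 kb upstream of its start, at chr15:9533421-9533800. Its signal was 2.12 in replicate 2, with 8 footprints and a best false discovery rate of 2.90e-09, and again no position was listed in replicate 3. Between 1.18 and 1.68 kb inside the gene, in an intron, lay 3 adjoining peaks at 1.28 (chr15:9528036-9528240), 1.88 (chr15:9528281-9528580) and 1.09 (chr15:9528601-9528700), also in replicate 2 alone. The promoter, the upstream element and the intronic cluster were thus all called in replicate 2 and in no list of replicate 3. The exception in the locus was a peak 45.2 kb upstream, between genes, at 2.96 in replicate 2. It was in the permissive list of replicate 3 at 2.53, with a best false discovery rate of 0.00145. The stretch covered by the peaks of both libraries held 4 footprints in replicate 2 and 3 in replicate 3. The last 2 peaks were weaker, at 1.18 (47.7 kb upstream) and 0.522 (57.5 kb downstream of the start, beyond the end of the gene).

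**Figure D2:**
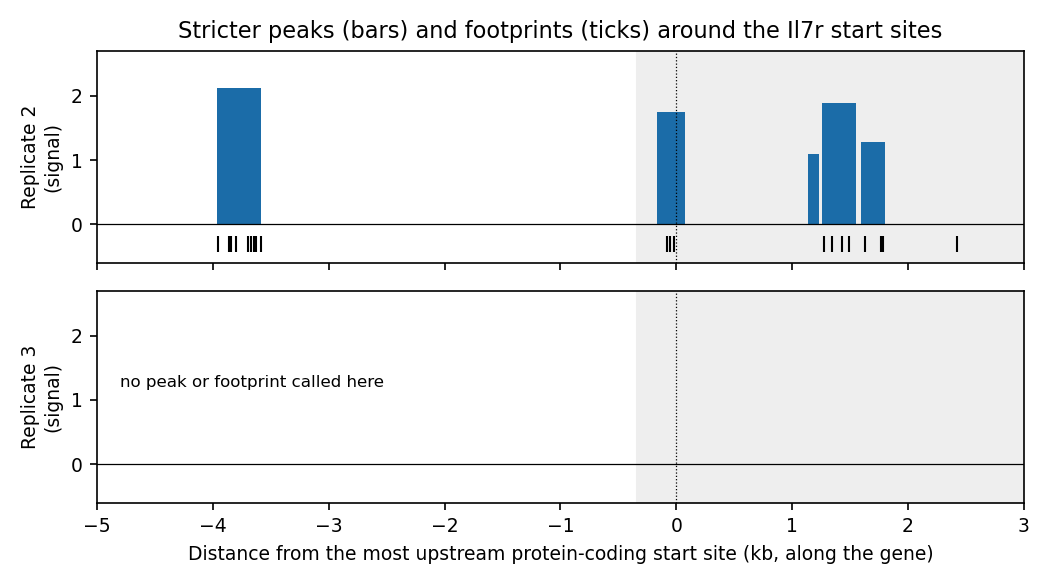
Stricter peaks (bars, height is the deposited signal) and footprints (ticks) from 5 kb before to 3 kb after the most upstream protein-coding start site of Il7r (dotted line), for replicate 2 above and replicate 3 below; grey marks the gene body, which begins earlier because of a noncoding transcript. Replicate 2 had 5 peaks in this window, up to a signal of 2.12, and replicate 3 had no peak and no footprint.

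How often a peak of replicate 2 was seen again in replicate 3 rose with its signal. Over the 10 equal groups of replicate 2 peaks ordered by signal, the share present in the permissive list of replicate 3 went up from 10.3% in the weakest to 99.7% in the strongest. The Il7r promoter, the upstream element and the middle intronic peak fell in the group of rank 7, of which 81.2% were found and 720 of 3823 (18.8%) were not. Whole loci were counted by the stricter lists instead, under which Il7r had no region found in both. Of 5703 genes with at least as many regions in their locus as the 8 of Il7r, 67 (1.17%) had none found in both libraries. Of 8486 genes with a replicate 2 promoter signal at least that of Il7r, 96 (1.13%) had no promoter peak in the permissive list of replicate 3. Il7r itself stands at the lower end of each of these sets, by how they were drawn. Of all 11019 genes with a stricter promoter peak in replicate 2, 1160 (10.5%) had none in the permissive list of replicate 3. Over all 21827 genes, 6430 (29.5%) had no stricter region found in both. Neighbouring peaks of a locus are not independent of each other, and the part of depth in this difference between the libraries was not tested.

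**Figure D3:**
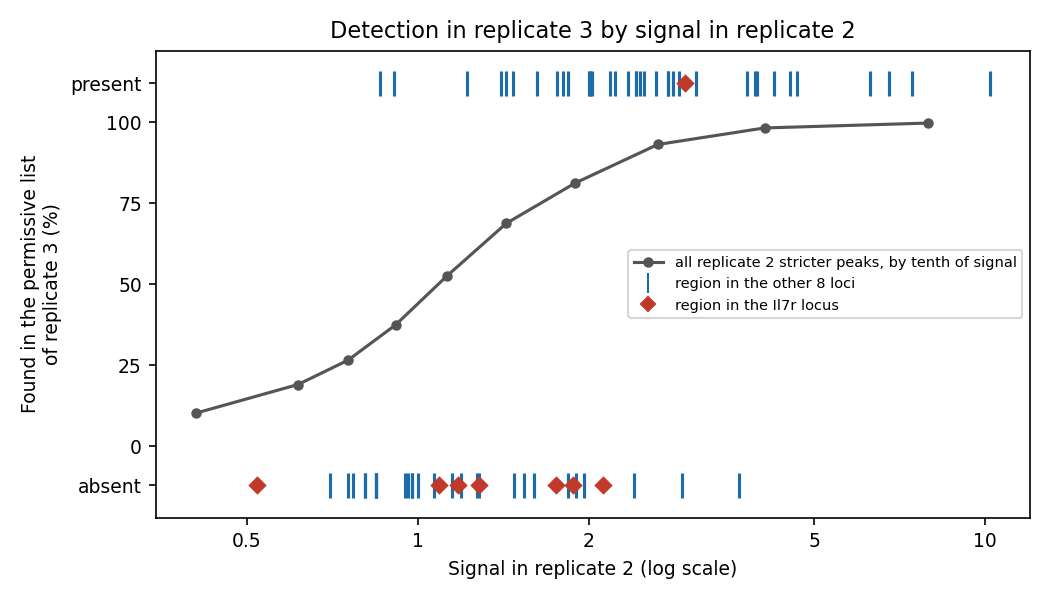
Share of replicate 2 stricter peaks found in the permissive list of replicate 3 (line, percent) against their signal in replicate 2 (log scale), for all peaks in 10 equal groups by signal. Marks above and below show the regions of the family's loci that were present or absent, with the 8 Il7r regions as red diamonds, of which 1 was present.

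Il2ra, the alpha chain of the interleukin 2 receptor, lies at chr2:11642807-11693193 on the plus strand and showed the opposite layout, with hardly any promoter peak and with intronic peaks in both libraries. At the promoter the stricter lists had no peak, and the permissive list of replicate 2 had one of 0.485. The intronic element 10.7 kb past the start had signals of 3.80 in replicate 2 and 3.34 in replicate 3. That 21.3 kb past the start had 2.82 and 3.16. Both were stricter peaks in each library, with 2 and 3 footprints in replicate 2 and 3 and 2 footprints in replicate 3. None of the first element's footprints overlapped between the libraries. A weaker intronic peak 29.5 kb past the start, at 1.48, was in replicate 2 alone. The strongest peak of the locus belonged by position to another gene, the promoter of Rbm17 (chr2:11603161-11603400), at 7.44 in replicate 2 and 6.41 in replicate 3.

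Il2rb, the beta chain used for interleukins 2 and 15, lies at chr15:78479256-78495271 on the minus strand and had the most peaks of the family's loci in replicate 2, though not in replicate 3. Replicate 2 had 15 stricter peaks in its locus and replicate 3 had 3. The promoter peak at chr15:78495021-78495300 was the second strongest promoter of the family in replicate 2, at 3.97, higher than in 52.7% of genes with one. In replicate 3 it was in the permissive list alone, at 2.03 with a best false discovery rate of 0.00710. This peak held 6 footprints in replicate 2 and 0 in replicate 3. The promoter windows of all Il2rb start sites together held 8 and 0. A second promoter peak, at chr15:78493693-78493841, had 1.15 in replicate 2 alone.

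The strongest peak of the Il2rb locus was the upstream element 37.1 kb before the start, at 6.76 in replicate 2 and 9.40 in replicate 3, with 4 and 3 footprints. It lies between genes, and its nearest start site is that of C1qtnf6. The other regions found in both libraries lay in an intron of Tmprss6, at 4.53 and 4.92 (chr15:78447721-78447920) and at 4.25 and 4.88 (chr15:78448321-78448500) in replicates 2 and 3. So none of the 3 regions seen in both libraries had the Il2rb start as its nearest.

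Il15ra, the alpha chain that presents interleukin 15, lies at chr2:11705290-11734317 on the plus strand, 12.1 kb past the end of Il2ra, and the loci share 3 regions. Its promoter had stricter peaks in both libraries, at 0.910 in replicate 2 and 1.17 in replicate 3. These were low in rank: 9.08% of genes with a stricter promoter peak had a lower one in replicate 2 and 0.863% in replicate 3. The call in both libraries was lost when the peaks had to overlap by 50% of each, and when each library was held to the same number of peaks. The strongest peak of the locus was at the facing promoters of Ankrd16 and Fbh1 (chr2:11777521-11777720), with 10.2 in replicate 2 and 9.85 in replicate 3. A second region there, chr2:11778130-11778580, was also found in both, at 2.35 and 2.53. Between them, at chr2:11777990-11778057, was the single region of all 9 loci called in replicate 3 alone, at 0.858.

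Il4ra, the chain that recognises interleukin 4, lies at chr7:125552120-125579474 on the plus strand. Its promoter peak at chr7:125552121-125552420 was 2.89 in replicate 2 and 4.43 in replicate 3, with 4 and 2 promoter footprints. An intronic peak 9.35 kb past the start had 2.76 and 3.16. A site 44.6 kb upstream was also found in both, at 1.47 and 1.54, and its nearest start site is that of Nsmce1.

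Il21r, the interleukin 21 receptor chain, follows on the same strand at chr7:125603429-125633570, 24.0 kb past the end of Il4ra, and 6 regions lie in both loci. Between the genes, chr7:125581121-125581668 was the strongest peak of either locus, at 3.93 in replicate 2 and 4.88 in replicate 3, with 11 and 2 footprints. Its nearest start site is that of Il21r, 22.1 kb away. A second site between the genes, chr7:125588781-125589060, had 2.92 in replicate 2 and was absent from both lists of replicate 3, although 93.1% of peaks of its signal group were found there.

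The Il21r promoter itself was weak, at 1.27 in replicate 2 (chr7:125603334-125603499), higher than in 15.5% of genes with one. No list of replicate 3 had it, with a best false discovery rate there of 0.0361. Downstream of the gene, sites 32.1 and 35.5 kb past the start were found in both libraries, at 2.03 and 2.50 in replicate 2 and 3.16 and 3.12 in replicate 3. Intronic peaks 2.40 and 4.09 kb past the start, at 1.07 and 1.96, were in replicate 2 alone. One at 27.0 kb had 1.80 in replicate 2 and a permissive peak of 2.62 in replicate 3. Il21r thus had 3 regions found in both libraries that were nearest to its own start, the most of any of the genes, and none of them was at its promoter.

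**Figure D4:**
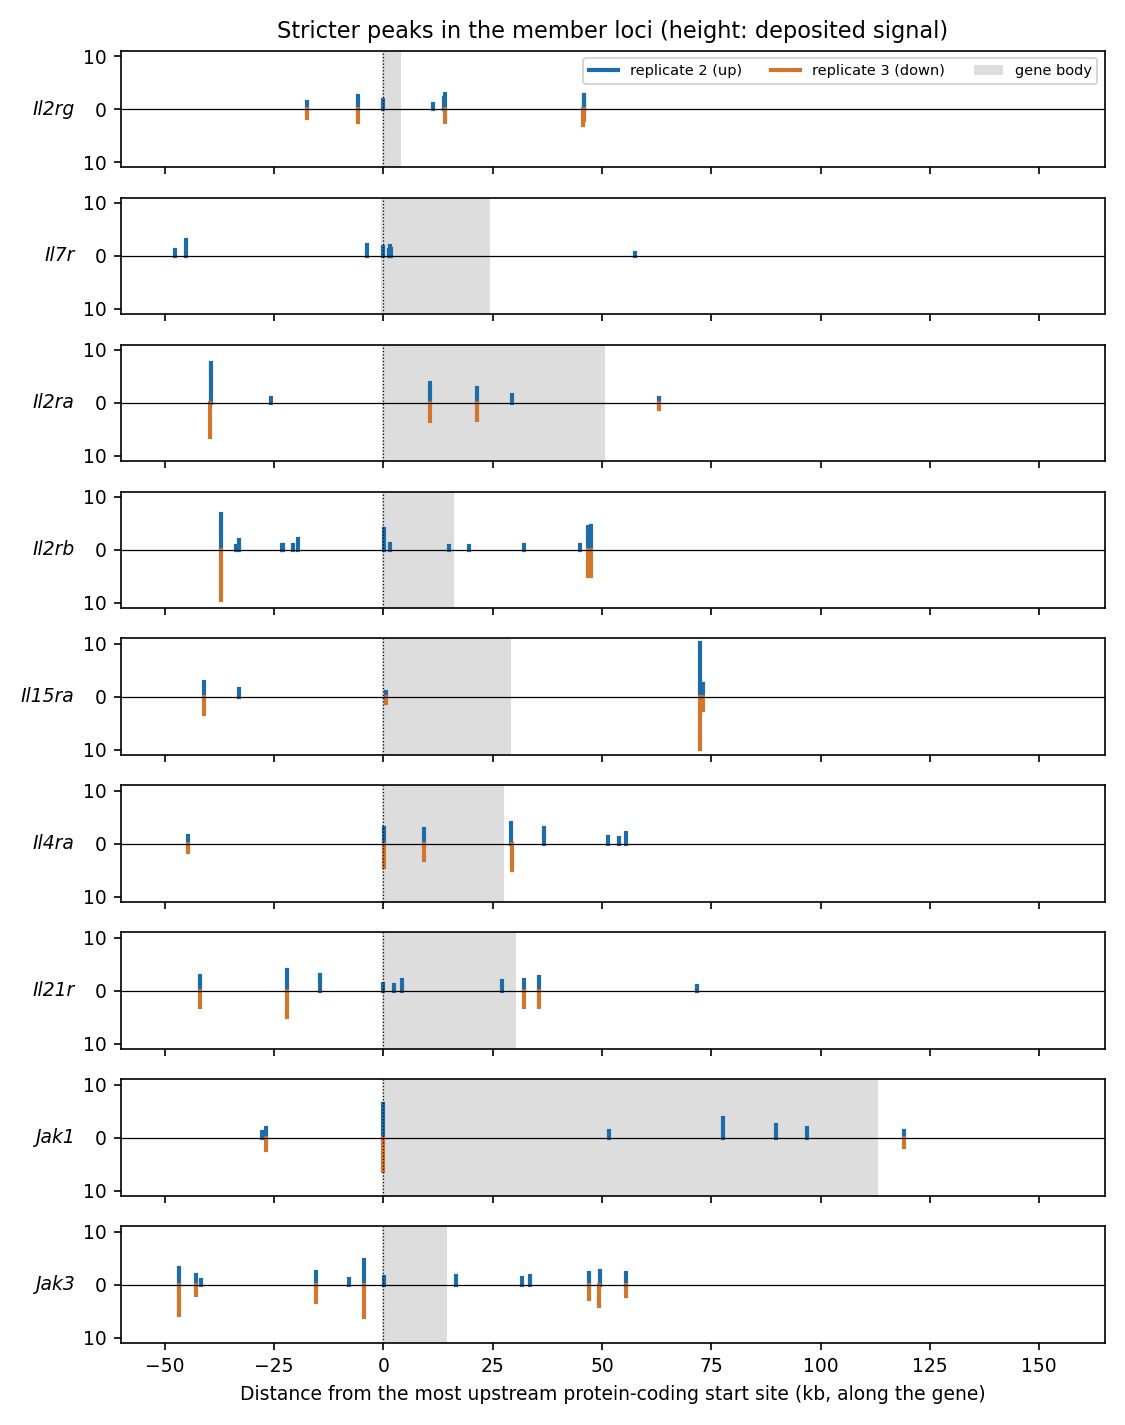
Stricter peaks of each locus by distance from the most upstream protein-coding start site (dotted line, kb, positive into the gene), with the deposited signal upward for replicate 2 (blue) and downward for replicate 3 (orange) and the gene body in grey. Il7r has upward bars alone, while Il2ra has paired bars in its introns and none at its start.

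Jak1, the kinase bound to the partner chains, lies at chr4:101152367-101265282 on the minus strand and had the strongest promoter of the family. The peak at chr4:101265181-101265400 was 6.27 in replicate 2 and 6.32 in replicate 3. That was higher than in 75.3% and 71.0% of genes with a stricter promoter peak in the same library. Its promoter held 5 footprints in replicate 2 and 2 in replicate 3. A site 26.9 kb upstream was found in both libraries at 1.84 and 2.35, and one in an intron of the neighbouring Raver2 at 1.22 and 1.72.

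Within the long Jak1 gene body, 4 stricter peaks were in replicate 2 alone. The strongest, the intronic element 77.7 kb past the start, had 3.69 with 1 footprint and a best false discovery rate of 6.36e-17. It fell in the group of rank 9 by signal, of which 98.2% were found in the permissive list of replicate 3. It is 1 of the 69 peaks of 3822 in that group (1.81%) that were not. No position of it was listed in replicate 3. The others were at a coding exon 89.9 kb past the start (2.41, with 5 footprints) and in introns at 96.8 kb (1.84) and 51.6 kb (1.28). The Jak1 promoter was thus called at a like signal in both libraries, while the peaks within the gene body were called in replicate 2 alone.

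Jak3, the kinase bound to the gamma chain, lies at chr8:71676296-71690575 on the plus strand in a crowded stretch with 13 regions, 7 of them found in both libraries. Its promoter peak was 1.43 in replicate 2, and in replicate 3 it was in the permissive list alone at 2.17, with a best false discovery rate of 0.00115. The promoter held 5 footprints in replicate 2 and 1 in replicate 3. None of the 7 regions had the Jak3 start as its nearest. They lay at the promoter of Unc13a (4.66 in replicate 2 and 6.19 in replicate 3), in its exons (3.09 and 5.83, 1.76 and 1.99) and an intron (2.42 and 3.25), at the promoter of Fcho1 (2.46 and 4.07) and in its intron (2.23 and 2.67), and between genes (2.18 and 2.17). Fewer regions found in both were counted in 94.4% of all genes' loci, but by position all 7 here are those of neighbours.

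The 9 loci together held 72 stricter peaks of replicate 2 and 32 of replicate 3, which form 72 regions. Of these, 29 were found in both libraries, 42 in replicate 2 alone and 1 in replicate 3 alone. At least 1 region found in both lay in the locus of 8 of the 9 genes, all but Il7r, where 70.5% of all genes had one. With the permissive lists it was 9 of 9, Il7r having 1, and the share of all genes with those lists was not computed. With the stricter lists, the median was 4 regions found in both per locus, against 2 over all genes. Counts ran from 15 regions at Il2rb (12.9 per 100 kb) and 13 at Jak3 (11.4 per 100 kb) to 6 at Il2ra and at Il15ra (3.99 and 4.65 per 100 kb). Longer genes give longer loci, and that of Jak1, at 213 kb, had 3.76 regions per 100 kb, against a median of 3.00 over all genes.

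**Figure D5:**
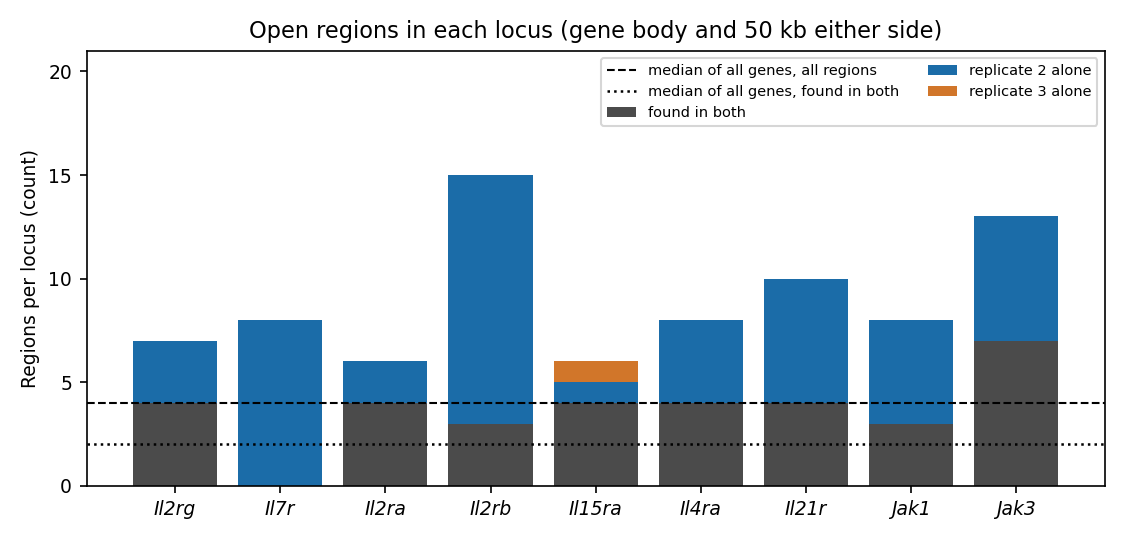
Number of regions in each locus, stacked as found in both libraries (dark), in replicate 2 alone (blue) and in replicate 3 alone (orange). The dashed line is the median of all genes for all regions (4) and the dotted line that for regions found in both (2); Il7r is the gene with no dark bar.

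Many regions in these loci belong to other genes by position. Of the 72 regions, 32 (44.4%) had the start site of a family member as their nearest, and of the 29 found in both libraries it was 10. Those 29 comprised 3 member promoters, 8 promoters of other genes and 18 sites away from any promoter. The 42 in replicate 2 alone comprised 6 member promoters, 2 of other genes and 34 sites away from promoters. Counting the regions nearest to a member start alone, 5 of the 9 genes had one found in both: Il2ra, Il15ra, Il4ra, Il21r and Jak1. The share of all genes counted in this way was not computed. By position, 27.8% of the 72 regions were at a promoter, 11.1% in other exons, 33.3% in introns and 27.8% between genes, against 43.0%, 4.71%, 24.5% and 27.8% of all 38248 regions.

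With no matching for signal, peaks in these loci were seen again in the other library about as often as peaks elsewhere. In replicate 2, peaks in these loci had the higher median signal, 1.84 against 1.26 of all peaks, and detection rose with signal. How often they were seen again at like signal was not computed. Of the 72 replicate 2 peaks, 30 (41.7%, 31.0 to 53.2) met one in the stricter list of replicate 3, against 42.5% (42.0 to 43.0) of the 38151 outside these loci. With the permissive list of replicate 3 it was 38 (52.8%, 41.4 to 63.9), against 58.7% (58.2 to 59.2). The other way round, 31 of 32 replicate 3 peaks (96.9%) overlapped one of replicate 2, against 95.7%. In the 29 regions found in both, replicate 3 had the higher signal in 24 (82.8%), against 63.0% of all 15925 such regions, with a median ratio of replicate 3 to replicate 2 of 1.15, against 1.09. Signal scaling is not stated, so this ratio compares deposited values and not openness. These regions also had to be called in replicate 3, the library with fewer peaks. They were thus not chosen independently of their replicate 3 signal, in these loci or over all.

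Footprints were fewer in replicate 3, as peaks were. The loci held 278 footprints in replicate 2 and 48 in replicate 3. In replicate 2, 67 of 72 peaks (93.1%, 84.8 to 97.0) held at least 1, against 87.6% of all peaks. In replicate 3 it was 21 of 32 (65.6%, 48.3 to 79.6), against 70.0%. The median signal of the peaks in these loci was 1.84 in replicate 2, against 1.26 of all peaks, and 3.14 in replicate 3, against 3.07. These counts cover whole loci, neighbouring genes included. The Jak3 locus had the most footprints, 51 in replicate 2 and 8 in replicate 3, of which the Jak3 promoter held 5 and 1. The Il15ra locus had the fewest in replicate 2, 21, with 6 in replicate 3. In replicate 3, the Il2ra locus led with 11, of which 6 lay in the peak at the Rbm17 promoter. The Il7r locus had 3, all of them in the stretch of the replicate 2 peak 45.2 kb upstream. Not all of those 3 lay in the narrower permissive peak of replicate 3. Like counts do not mean the same bases. Overlap of replicate 3 footprints with those of replicate 2 ran from 0 of 3 at Il7r to 6 of 6 at Il2rb.

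Short consensus letters were searched on both strands in the printed sequences and in the 200 bp around the centre of each replicate 2 peak. Base numbers count from 1 at the printed 5′ end. The Jak1 promoter holds the CREB and ATF letters TGACGTCA at bases 77 to 84, overlapping a footprint of each library. The 200 bp windows of 4 of the 72 peaks in these loci (5.56%) held those letters, against 1.54% of all 38223 windows. The first Il2ra intronic element also has them, at bases 36 to 43, outside footprints. The CREB and ATF letters were chosen after the printed sequences, which come from these peaks, had been seen. The comparison with all windows is therefore not independent of that choice. The Il2rg promoter holds CCGGAAG, the letters bound by ETS proteins, at bases 109 to 115 across a replicate 2 footprint; 4 windows (5.56%) had them, against 7.70% of all.

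A looser form of the core of CTCF, a protein that marks loop and domain borders, was searched as CNAGNNGGC. It occurs at bases 59 to 67 of the Il2rb upstream element as CCAGGGGGC. In the second Il2ra intronic element it is at bases 84 to 92, as CTAGAGGGC. Both matches overlap footprints in each library, and 13 windows (18.1%) had the letters, against 26.9% of all. This looser form was also chosen after the printed sequences had been seen. The usual CTCF consensus, which covers the same stretch more tightly, was in 5 windows (6.94%), against 9.83%, and in none of the printed sequences.

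The RUNX letters TGTGGT were in 17 windows (23.6%), against 17.0% of all. They lie in the Il7r promoter at bases 128 to 133 outside footprints, in the first Il2ra element at 143 to 148 overlapping a replicate 3 footprint, and in the Il4ra to Il21r element at 140 to 145, in its reverse form, overlapping a replicate 2 footprint. A further match lies at 224 to 229 of that element, and the Jak1 intronic element has them at 138 to 143 and 189 to 194. The Il7r upstream element has AGATAA, bound by GATA proteins, at bases 6 to 11, and ACATGCTGT, a match to the glucocorticoid receptor letters ACANNNTGT, at bases 234 to 242 across a replicate 2 footprint. Of windows in these loci, 5 (6.94%) had the GATA letters, against 5.03%, and 3 (4.17%) the glucocorticoid receptor letters, against 4.94%. The E-box letters CAGGTG, at bases 88 to 93 of the Jak1 intronic element in reverse form, were in 15 windows (20.8%), against 18.2%.

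The remaining letters were in no printed sequence. The STAT letters TTCNNNGAA, those of the family's own transcription factors, were in 4 windows (5.56%), against 4.90% of all. The AP-1 letters TGANTCA were in 8 (11.1%), against 4.91%, and the KLF and SP letters GGGCGG in 21 (29.2%), against 30.0%. The FOXO letters TGTTTAC were in 2 (2.78%), against 2.35%, and the TCF and LEF letters CTTTGAT in 3 (4.17%), against 2.60%. A match is a string of letters and not a bound site, and the windows of neighbouring peaks are not independent.

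The RefSeq promoter sequences, 250 bp before to 50 bp after each start, covered 8 of the 9 genes. A gene was counted where any of its sequences matched, while the shares given are of single sequences. Genes with several sequences thus had more chances to match. The STAT letters were in that of Il7r, as in 8.30% of 32851 promoters, and the RUNX letters in those of Il7r, Il2rg and Il21r, as in 16.8%. The ETS letters were in those of Il2rg and Il15ra, as in 8.86%. The CREB and ATF letters, chosen after the printed sequences had been seen, were in that of Jak1, as in 1.79%. The KLF and SP letters were in those of Il15ra, Il4ra, Il21r, Jak1 and Jak3, as in 35.7%.

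The promoters of other genes of the pathway were counted by role. None of the 8 ligand genes had a stricter promoter peak in either library, and Il7 alone had a permissive one, of 0.632 in replicate 3. Among the other receptor chains, Crlf2, the partner for thymic stromal lymphopoietin, had 2.08 in replicate 2 and a permissive 2.76 in replicate 3. Il9r had 0.582 in replicate 2 alone, and Il13ra1 had no stricter peak. Both other kinases were called in each library, Jak2 at 2.81 in replicate 2 and 3.21 in replicate 3 and Tyk2 at 2.76 and 3.07.

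Of the 7 STAT genes, 6 had a promoter peak in both libraries, among them Stat2 at 4.15 and 3.30, Stat3 at 10.1 and 9.80, and Stat4 at 1.72 and 3.84 in replicates 2 and 3. Stat5b, which with Stat5a carries the signal of interleukins 2 and 7, had 1.77 in replicate 2 and a permissive 2.35 in replicate 3. Of 16 inhibitors, 12 were called in both, such as Pias1 (8.27 in replicate 2 and 9.94 in replicate 3), Pias4 (12.9 and 8.63) and Ptpn11 (1.84 and 3.48). The other 4, Cish, Pias3, Ptpn6 and Socs2, were in the stricter list of replicate 2 alone, at 0.537 to 1.34, with Pias3 also in the permissive list of replicate 3 at 1.63. Of 8 targets and survival genes, Bcl2 (2.58 and 2.98), Bcl2l1 (9.53 and 8.31), Ccnd3 (3.25 and 3.93) and Pim1 (6.87 and 6.46) were called in both. Ccnd2, Mcl1, Myc and Pim2 were in the stricter list of replicate 2 alone, at 1.64 to 3.35. Mcl1 (2.62) and Pim2 (2.94) were also in the permissive list of replicate 3. Over these 44 pathway genes, 24 had a promoter peak in both libraries, 11 in replicate 2 alone and 9 in neither, beside 3, 5 and 1 of the 9 receptor and kinase genes. Of all genes, 40.9% had one in both libraries and 50.5% one in replicate 2, and no difference between roles or lists was tested.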

How the data were processed

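DNase-seq was measured in 2 libraries of 1 group, on the mm10 build per the labels. For each library the authors deposited a stricter and a permissive peak list with a signal value per peak, a list of q-values (false discovery rates, up to 0.05) per stretch of positions, and a list of footprints whose deposited value column holds 1 constant, so that the intervals alone were used. Per the deposited notes each list came from that library's own alignments. Software for alignment, peak calling and footprint calling was not given in the sources used here, and neither was the scaling of the signal, so levels were ranked within a library. The best q-value in a peak was no higher than 0.001 for stricter and 0.05 for permissive peaks.

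All 9 genes were named. Pathway genes were counted by role and up to 4 in alphabetical order named per outcome; a few genes that this names are not reported here. Of the peaks, those at the genes' promoters, those found in both libraries and the strongest 3 per library were named. Peaks of the Il7r, Il2ra, Il21r and Jak1 loci beyond that rule, and the region called in replicate 3 alone, were chosen after their values were seen. The genes, the lists and the sequences were chosen with earlier results of these data known, and the CREB and looser CTCF letters after the sequences were seen. With 1 group there was no comparison between conditions and no test. Distances in the text run from a peak's centre to the gene's nearest protein-coding start. A promoter peak was a peak overlapping 1000 bp either side of any protein-coding start, and a percentile is the share of genes with a stricter promoter peak in that library that had a lower one.

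All 32851 RefSeq promoter sequences equalled the GRCm38 reference at their positions, and 0 of 133725 peaks ran past a chromosome end. Alternatives varied the list used, the peak number, the overlap, the promoter window, the flank, the assignment of peaks and the libraries. Overlap and motif code were tested on simulated data. Python 3.11.15, numpy 2.4.6, scipy 1.17.1, pysam 0.24.0 and matplotlib 3.10.9 were used.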

Additional observations from a re-analysis of the deposited data

How the results depend on the processing

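Of the 9 genes, 3 had a promoter peak in both libraries; it was 6 with the permissive lists and 3 to 8 when either library was left out. A region found in both lay in 8 loci, in 9 with the permissive lists (Il7r then had 1), in 5 when peaks were kept by nearest member start, and in 8 to 9 with 1 library left out. For these locus counts, the share of all genes was computed with the main setting alone. The 29 regions found in both became 12 with 10 kb flanks, 10 by nearest member start and 32 to 71 with 1 library left out, where every peak of the other counts. The 72 peaks of replicate 2 became 45 with equal numbers of peaks per library, 37 with 10 kb flanks, 109 with 100 kb flanks and 32 by nearest start. The 32 of replicate 3 became 12 with 10 kb flanks and 10 by nearest start. The share of replicate 2 peaks found in replicate 3, 41.7%, was 60.0% with equal numbers. Footprints numbered 278 in replicate 2 and became 158, 430 and 142 with 10 kb flanks, 100 kb flanks and by nearest start. In replicate 3 they numbered 48 and became 18, 78 and 20. Other flanks count shorter or longer stretches by construction. Counts per locus moved in 26 of their alternatives and held in 46, and none of the 13 motif counts moved with whole peaks in place of windows. No paired analysis was possible because there is 1 group. The files used give no read depth, so what absence from replicate 3 shows is limited, and 2 libraries give no estimate of spread between animals.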
